A study of Mus musculus with 4 samples.

Results

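The proteasome genes described here are the 47 of 31053 genes in the count matrices whose mouse symbol starts with Psma, Psmb, Psmc, Psmd, Psme, Psmf or Psmg followed by a digit. The 3 immunoproteasome genes Psmb8, Psmb9 and Psmb10 also match that pattern and were set aside as a companion list. The 47 genes were grouped by role. There were 7 genes of the 20S alpha ring (Psma1 to Psma7), 7 of the 20S beta ring (Psmb1 to Psmb7), 9 of the 19S base (Psmc1 to Psmc6, Psmd1, Psmd2 and Psmd4) and 8 of the 19S lid (Psmd3, Psmd6, Psmd7, Psmd8 and Psmd11 to Psmd14), and these 31 are called the structural subunits. The remainder were 4 activators (Psme1 to Psme4), the inhibitor Psmf1, 7 assembly chaperones (Psmd5, Psmd9, Psmd10 and Psmg1 to Psmg4) and 4 genes that code for no common subunit (Psma8, Psmb11, Psmc3ip and Psme2b).

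The proteasome is the cell's main protease for ubiquitin-tagged proteins. Its barrel-shaped 20S core holds stacked alpha and beta rings, and the beta subunits Psmb5, Psmb6 and Psmb7 carry the peptide-cutting sites. The 19S regulator docks on the core, and its base of ATPases unfolds the substrate while its lid removes the ubiquitin chain. PA28, built from Psme1 and Psme2, opens the core without ubiquitin and is induced by interferon-gamma in antigen-presenting cells, where Psmb8, Psmb9 and Psmb10 replace the constitutive catalytic subunits.

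The study compared immune cells sorted by FACS from mammary tumours of 12 weeks old FVB/NJ mice of the genotypes PyMT and Jagged1/PyMT. Both groups carry PyMT, the polyoma middle T oncogene that drives mammary tumours, and the second also carries Jagged1, a ligand of Notch receptors. Which promoters drive the transgenes is not stated in the labels used. Each genotype had 2 samples, which the labels describe as made with Chromium 3′ kits of version 3.1 from 8000 immune cells. Both samples of a genotype share 1 matrix with no map from cell barcode to sample. Each genotype is therefore 1 library, no difference between genotypes could be tested, and no p-value is given. Levels are counts of unique molecular identifiers (UMIs, which mark single RNA molecules) per 1000000 UMIs of the same class of barcodes, written CPM. The 95% intervals are exact Poisson intervals of levels, exact binomial intervals of shares and exact conditional intervals of ratios, and all of them cover counting error only.

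Kept were barcodes with 500 or more UMIs, 250 or more detected genes and no more than 10% of UMIs from mitochondrial genes. These were 7444 barcodes (median 3841 UMIs) in the PyMT library and 7875 (median 4200 UMIs) in the Jagged1/PyMT library, with 70 barcode sequences present in both. A barcode was put in a class when it held at least 3 UMIs over at least 2 marker genes of that class and of no other. This gave 4798 and 2484 T cell-gated barcodes in the PyMT and Jagged1/PyMT libraries, 1335 and 1217 B cell-gated, 174 and 1693 macrophage-gated, 73 and 177 neutrophil-gated, and 53 and 49 mature dendritic cell (DC)-gated barcodes. Another 509 and 1767 barcodes were positive for more than 1 class and were left out. Jag1 itself gave 1 UMI in 89 epithelial-gated barcodes of the PyMT library and 122 UMIs in 42 of the Jagged1/PyMT library. It stood at 0.241 and 25.03 CPM in T cells, also higher in the library labelled Jagged1/PyMT, and at 16.0 and 8.65 CPM in macrophages, in the opposite direction. All 31 structural genes and 45 of the 47 members had at least 50 UMIs over both libraries in the T cell, B cell and macrophage classes, the minimum for a ratio to be counted.

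The most abundant structural RNA was a beta ring gene in each of these 3 classes. A 3′ kit tags the end of each captured molecule, so levels were compared between genes without dividing by length. Differences between genes in capture or in the annotated 3′ end were not measured. In T cell-gated barcodes Psmb1, a non-catalytic beta ring subunit, stood at 223 CPM in PyMT and 237 in Jagged1/PyMT, and Psmb7, the trypsin-like catalytic subunit, at 38.9 and 42.5. The beta ring genes, whose proteins enter each ring in equal number, thus spanned 5.72-fold and 5.58-fold in UMI level. Psmb7 was also the lowest of its ring in B cell-gated barcodes (50.7 and 42.8) and in macrophage-gated barcodes (61.8 and 79.2). The highest beta ring gene was Psmb1 in B cells (224 and 216) and Psmb6, the caspase-like catalytic subunit, in macrophages (289 and 300).

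Among alpha ring genes, Psma4 was the lowest in T cells (57.4 and 64.8) and in B cells (50.9 and 48.9), while Psma5 was the lowest in macrophages (97.3 and 110). Psma2 was the highest alpha ring gene in T cells (186 and 210), Psma3 in B cells (196 and 185) and Psma7 in macrophages (212 and 295). In the 19S lid, Psmd8 was the highest gene in all 3 classes and both libraries, at 119 and 113 CPM in T cells, 151 and 150 in B cells, and 166 and 244 in macrophages. The 19S base was the most even group. Its highest gene exceeded its lowest by 1.68-fold in Jagged1/PyMT macrophages and by 2.39-fold in PyMT T cells, where Psmd1, a scaffold that holds the base together, was at 41.2 and Psmd4, a ubiquitin receptor, at 98.3. The highest alpha ring gene was thus a different one in each of the 3 classes.

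**Figure D1:**
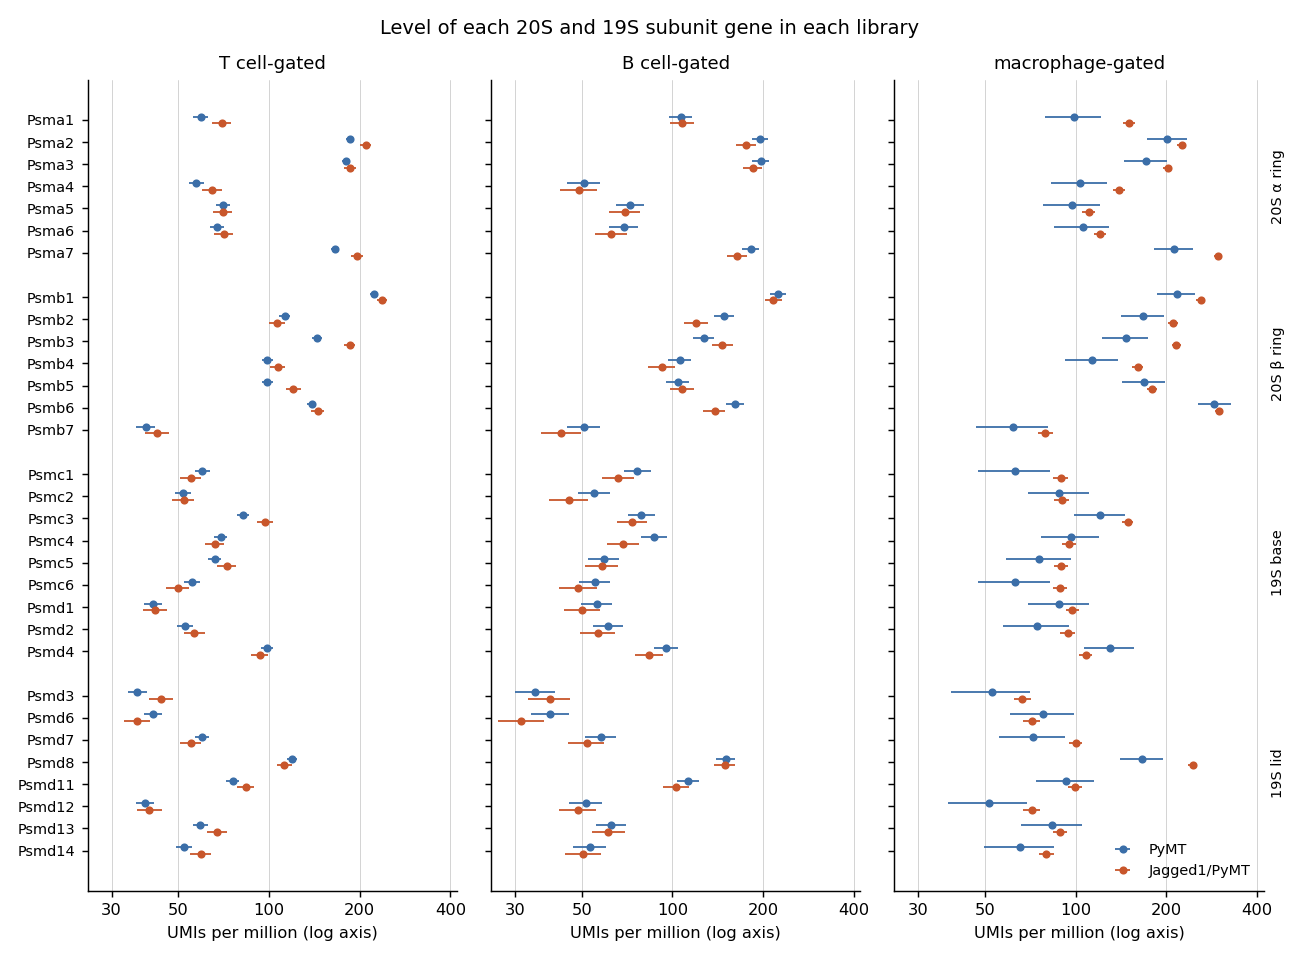
Level of each of the 31 structural genes (CPM, log axis) in T cell-, B cell- and macrophage-gated barcodes of the PyMT and Jagged1/PyMT libraries. Points are the level in 1 library and lines its 95% Poisson interval. Psmb7 is the lowest beta ring gene in all 3 panels, Psmd8 the highest lid gene, and the PyMT intervals in macrophages are wide because 174 barcodes stand behind them.

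The RefSeq promoter table (build GRCm38.p6) held 39 of the 47 members, 25 of them structural, among 27025 genes. The 250 bases before the start site are shown for 5 genes on which later results turn: the catalytic subunits Psmb5 at chr14:54617996-54618245 (minus strand) and Psmb6 at chr11:70525107-70525356 (plus strand), the alpha ring gene Psma4 at chr9:54950609-54950858 (plus strand), and the PA28 genes Psme1 at chr14:55578244-55578493 (plus strand) and Psme2 at chr14:55591102-55591351 (minus strand). They are written 5′ to 3′ on the gene's strand. Capitals mark matches to TGACNNNGC, the core of the antioxidant response element bound by Nrf1 and Nrf2, factors that can raise proteasome genes.
Psmb5: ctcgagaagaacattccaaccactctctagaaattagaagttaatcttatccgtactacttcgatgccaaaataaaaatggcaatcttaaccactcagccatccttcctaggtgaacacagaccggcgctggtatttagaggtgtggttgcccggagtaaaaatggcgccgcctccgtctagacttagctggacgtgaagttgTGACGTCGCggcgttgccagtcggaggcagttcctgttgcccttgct
Psmb6: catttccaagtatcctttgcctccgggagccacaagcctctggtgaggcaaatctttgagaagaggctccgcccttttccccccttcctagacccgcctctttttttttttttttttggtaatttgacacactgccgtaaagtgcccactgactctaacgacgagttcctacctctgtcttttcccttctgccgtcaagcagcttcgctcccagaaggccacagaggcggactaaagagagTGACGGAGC
Psma4: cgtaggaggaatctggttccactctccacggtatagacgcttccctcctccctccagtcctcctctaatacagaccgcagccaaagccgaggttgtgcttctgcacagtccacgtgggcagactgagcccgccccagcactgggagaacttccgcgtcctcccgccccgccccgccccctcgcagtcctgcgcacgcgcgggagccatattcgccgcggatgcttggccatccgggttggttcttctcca
Psme1: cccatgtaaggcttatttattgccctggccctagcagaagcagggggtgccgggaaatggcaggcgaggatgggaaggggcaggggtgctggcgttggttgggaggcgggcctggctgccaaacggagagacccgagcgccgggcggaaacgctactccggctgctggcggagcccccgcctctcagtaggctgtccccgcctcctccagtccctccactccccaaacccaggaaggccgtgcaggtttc
Psme2: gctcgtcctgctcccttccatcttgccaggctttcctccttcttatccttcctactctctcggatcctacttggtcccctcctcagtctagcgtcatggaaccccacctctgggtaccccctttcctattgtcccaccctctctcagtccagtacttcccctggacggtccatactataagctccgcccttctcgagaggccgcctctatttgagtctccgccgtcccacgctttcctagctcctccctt
The start sites shown for Psme1 and Psme2 lie 12607 bases apart on chromosome 14. Psme2 has 2 listed start sites, and the other is not shown. A gene was counted if any of its listed windows matched. TGACNNNGC, searched on both strands, was found in 4 of 25 structural genes, Psmb5, Psmb6, Psmc6 and Psmd12. That is 16%, against 11.5% of all genes with a promoter. The letters of the interferon-stimulated response element (GAAA, any 2 bases, GAAA) were found in 2 of 25 (8%), Psmb3 and Psmd4, against 3.46% of all genes. The gamma-activated site TTCNNNGAA was in 0 of 25 and in 8.13% of all genes, and CCAAT was in 10 of 25 (40%) and 37.5%. The windows of Psme1 and Psme2 held none of these 4 strings. A match is a run of letters and not a measured binding site.

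In T cell-gated barcodes the structural subunits differed little between the genotypes. Their summed level was 2699 CPM in PyMT (95% interval 2677 to 2721) and 2892 in Jagged1/PyMT (2860 to 2924), a log2 ratio of 0.10 (0.08 to 0.12). None of the 31 genes passed 1.5-fold, where 7.56% of 9862 measured genes were higher and 5.8% lower by that much. The ratio was above 1 for 22 of 31 genes, with a median log2 ratio of 0.09 against 0.0039 for all measured genes. The interval lay above 1 for 14 genes and below 1 for 2, the ATPase Psmc6 and the lid subunit Psmd6. Each structural gene had at least 758 UMIs in PyMT and 387 in Jagged1/PyMT, so these intervals were narrow. The share of all measured genes whose interval left out 1 was not counted. The log2 ratio of the structural sum was 0.022 (-0.0042 to 0.05) in the 3800 and 1603 barcodes with 0 UMIs of any other class's markers.

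The ratios differed between the core and the regulator, and no test of that difference was made. The 20S alpha and beta ring sums each had a log2 ratio of 0.14, against 0.02 for the 19S base and 0.04 for the lid. Psmb3, a non-catalytic beta ring gene, had the highest structural ratio at 0.36 on the log2 scale, from 144 CPM in PyMT to 185 in Jagged1/PyMT. Psmb5, the chymotrypsin-like subunit, followed at 0.29 (98.8 and 120). The lowest were Psmd6 at -0.18 (41.2 and 36.4) and Psmc6 at -0.16 (55.5 and 49.8). Psmb3 was the 1 structural gene whose interval lay above 1 in T cells, B cells and macrophages alike.

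The activator PA28 had a larger ratio than the structural subunits in T cell-gated barcodes. Psme1, its alpha subunit, was at 375 CPM in PyMT and 446 in Jagged1/PyMT (log2 ratio 0.25, 0.20 to 0.30). Psme2, its beta subunit, was at 244 and 349 (0.52, 0.45 to 0.58), just inside the 1.5-fold line. The nuclear activators did not follow: Psme3, the PA28 gamma gene, was at 57.8 and 52.3, and Psme4, the PA200 gene, at 11.8 and 9.60. The inhibitor Psmf1 (PI31) was at 29.6 and 27.0. Of the 7 assembly chaperones none passed 1.5-fold, and their sums were 172 and 177 CPM. Psme2b, a near copy of Psme2 with which it may share reads, rose from 6.07 to 9.60 CPM (log2 ratio 0.66, 0.27 to 1.05) and was the 1 member past 1.5-fold in T cells.

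Other measures moved in the same T cell classes. The 10-gene cycling list stood at 73.2 CPM in PyMT and 153 in Jagged1/PyMT, and without the 28 and 36 cycling barcodes the structural log2 ratio was 0.06. The 3 C1q markers of macrophages, all detected, summed to 12.7 and 59.9 CPM in T cell-gated barcodes, against 12102 and 12521 in macrophage-gated ones. The interferon list of 6 genes summed to 294 and 324. The part of these in the T cell ratios was not tested, beyond the values given with and without the barcodes concerned.

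The structural ratio was larger in the CD8 than in the CD4 class. In barcodes gated as T cell and CD8 the structural level was 2605 in PyMT and 3019 in Jagged1/PyMT, with 27 of 31 genes above 1 and none past 1.5-fold (background 7.83% higher and 6% lower). In the CD4 class it was 2785 and 2809, with 14 of 31 genes above 1 and none past 1.5-fold (4.06% higher and 8.38% lower). Without cycling barcodes 24 of 31 genes in CD8 and 15 of 31 in CD4 were above 1. By these background shares, all measured genes also leaned higher in CD8 and lower in CD4. The part of that lean in the counts above 1 was not tested. Psme2 rose in the CD8 class, from 269 to 409 CPM (log2 ratio 0.60, 0.50 to 0.70). The difference between CD8 and CD4 cells was not tested.

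In B cell-gated barcodes the structural subunits went the other way. Their level was 2981 CPM in PyMT (interval 2933 to 3030) against 2763 in Jagged1/PyMT (2712 to 2815), a log2 ratio of -0.11 (-0.15 to -0.07). No structural gene passed 1.5-fold (background 4.59% higher and 6.12% lower), 27 of 31 ratios were below 1, and the median log2 ratio was -0.13 against -0.04 for all measured genes. All 9 genes of the 19S base were below 1. The lowest ratios were the ATPase Psmc4 at -0.34 (86.9 and 68.6 CPM) and Psmd6 at -0.32 (39.3 and 31.5), and the highest were Psmb3 at 0.21 (127 and 147) and the lid scaffold Psmd3 at 0.16 (35.0 and 39.1). Psme1 was at 325 and 334 and Psme2 at 176 and 200. Psmc3ip, a meiotic recombination gene named for its binding to Psmc3, fell from 15.9 to 8.85 (log2 ratio -0.84, -1.45 to -0.25) and was the 1 member past 1.5-fold. The cycling list summed to 15.5 and 66.6 CPM in these B cells and the 3 macrophage markers to 8.86 and 44.5, and their part in the ratios was not tested. When barcodes positive for another class as well were counted in, the structural log2 ratio of B cells turned to 0.01. Myc stood at 305 and 652 CPM in these B cells. The structural level of B cells with a Myc UMI was 2927 in PyMT and 2725 in Jagged1/PyMT, and that of B cells without one was 3014 and 2822.

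Macrophage-gated barcodes showed the largest structural ratio of these 3 classes. The level was 3611 CPM in PyMT (interval 3486 to 3739) against 4367 in Jagged1/PyMT (4332 to 4401), a log2 ratio of 0.27 (0.22 to 0.33). Ratios were above 1 for 28 of 31 genes, with a median log2 ratio of 0.29 against 0.07 for all measured genes. The exceptions were Psmd4 at -0.26 (129 and 108), Psmd6 at -0.13 (77.9 and 71.3) and Psmc4 at -0.02 (96.2 and 94.8). One structural gene of 31 passed 1.5-fold, against 16.5% of measured genes higher and 10.5% lower. It was Psma1, an alpha ring gene, which rose from 98.5 to 150 CPM (log2 ratio 0.61, 0.30 to 0.94). The lid gene Psmd8 at 0.56 (166 and 244) and Psmb3 at 0.56 (147 and 216) came next.

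Core-assembly chaperones in macrophages rested on few PyMT molecules. Psmg1 rose from 6 UMIs to 264 (6.87 and 18.4 CPM, log2 ratio 1.42, 0.28 to 2.88), Psmg3 from 4 UMIs to 243 (4.58 and 17.0, 1.89, 0.51 to 3.78), and Psmg4 from 28 UMIs to 787 (32.1 and 54.9, 0.78, 0.23 to 1.38). Psmd5, a base chaperone, with Psmc3ip and Psme2b, was also past 1.5-fold, but its interval and theirs reached below 1. Psme1 was at 261 and 351 CPM and Psme2 at 236 and 314, log2 ratios of 0.43 and 0.41. The macrophage classes differed in more than genotype. The PyMT barcodes numbered 174 with a median of 2841.5 UMIs and 8 cycling, and the Jagged1/PyMT barcodes 1693 with a median of 6891 UMIs and 248 cycling. T cell markers summed to 37.8 and 10.8 CPM in them, and the part of depth, cycling and these markers was not tested beyond the following values. Thinned to 1000 UMIs per barcode, the log2 ratio was 0.22 (0.09 to 0.35), and in barcodes of 2000 to 10000 UMIs it was 0.17 (0.08 to 0.25).

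**Figure D2:**
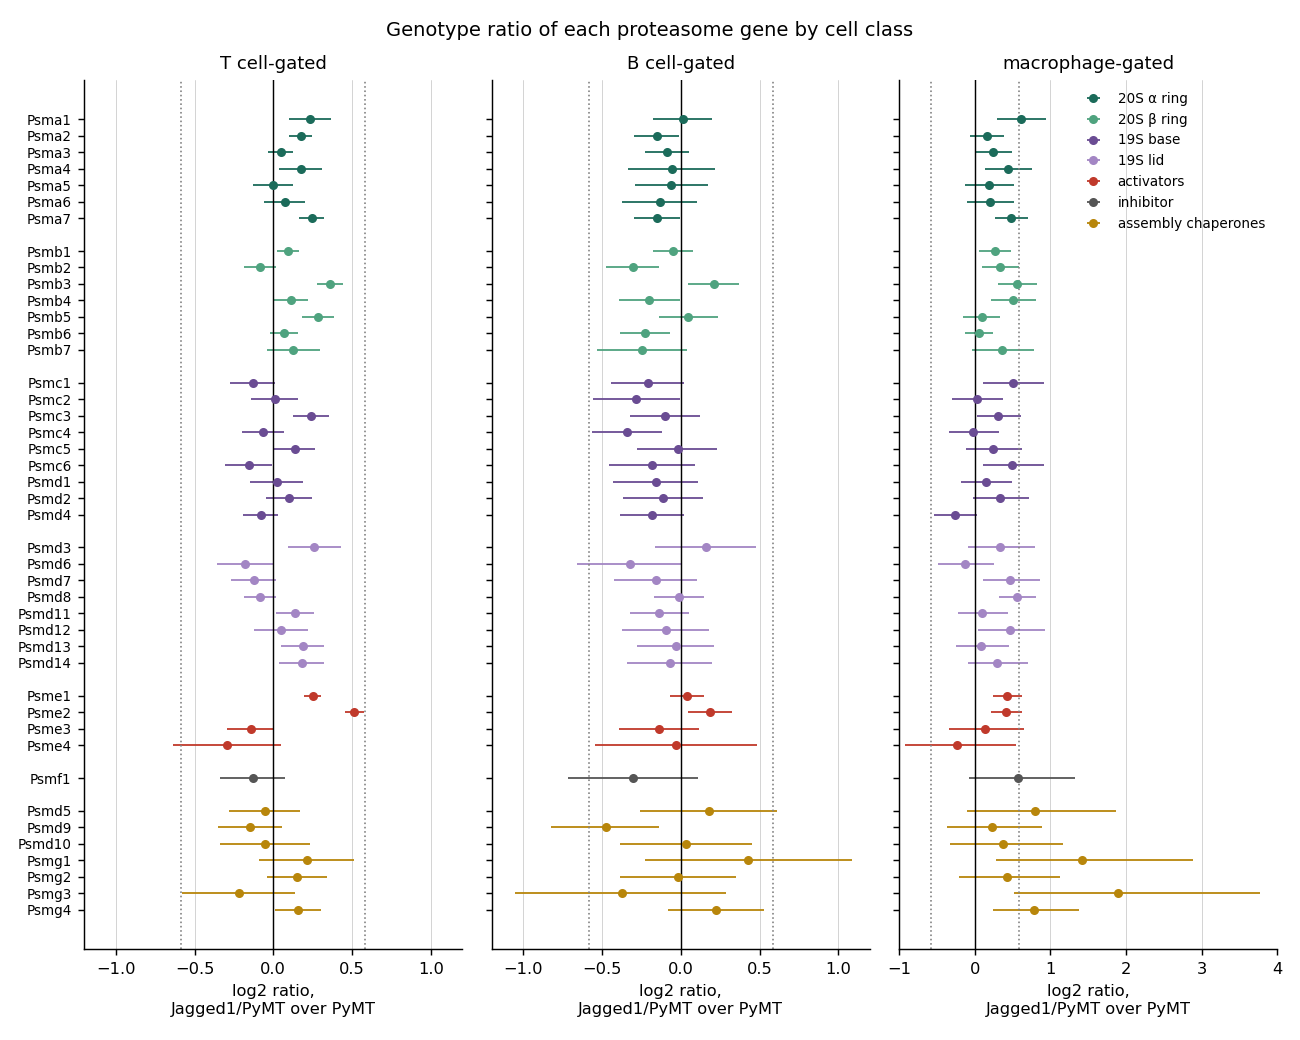
Log2 ratio of Jagged1/PyMT over PyMT for the structural genes, activators, inhibitor and assembly chaperones in 3 classes, with 95% conditional intervals, where the solid line marks no difference and dotted lines mark 1.5-fold. The macrophage panel has a wider axis because Psmg1 and Psmg3 had 6 and 4 UMIs in PyMT. Structural ratios sit within the dotted lines except Psma1 in macrophages, and Psme2 reaches 0.52 in T cells.

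Over all kept barcodes the structural level was 2940 in PyMT and 3683 in Jagged1/PyMT, a log2 ratio of 0.32, with Psma1, Psma4, Psmb6 and Psmd1 past 1.5-fold higher (background 22.7% higher and 18.9% lower). With the class shares of the PyMT library held fixed the log2 ratio was 0.08, and with those of the Jagged1/PyMT library it was 0.18. Macrophage-gated barcodes made up 2.34% of the PyMT and 21.5% of the Jagged1/PyMT library, and the part of class shares in the calls of single genes was not tested.

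Psmd1, Psmb6 and Psma4 were among the structural genes past 1.5-fold higher in macrophages than in T cells in both libraries. Psmd1 rose from 41.2 CPM in T cells to 88.2 in macrophages of the PyMT library and from 41.9 to 97.5 in the Jagged1/PyMT library. Psmb6 rose from 138 to 289 and from 145 to 300, and Psma4 from 57.4 to 103 and from 64.8 to 139. In all, 9 of 31 structural genes in PyMT and 20 in Jagged1/PyMT were past 1.5-fold higher, where 29.1% and 36.1% of measured genes were, so that the PyMT count was at the background share. Without ribosomal protein and mitochondrial genes in the total, only Psmd1 in PyMT and Psmd1, Psmd8, Psma1 and Psma4 in Jagged1/PyMT were past it, 1 and 4 of 31 (background 18.8% and 25.6%). The calls of Psmb6 in both libraries and of Psma4 in PyMT ended there, at log2 ratios of 0.55 and 0.55 and of 0.34. The PA28 sum went the other way, at log2 ratios of -0.32 and -0.26 over all UMIs. Psme1 was at 261 and 351 in macrophages against 375 and 446 in T cells, and Psme2 was lower by less. The sum of the structural genes depended on the denominator. It was higher in macrophages by 0.42 and 0.59 on the log2 scale over all UMIs, and by -0.09 and 0.10 once ribosomal protein and mitochondrial genes were left out of the total. Ribosomal protein genes took 39.0% of T cell UMIs in both libraries and 14.4% and 15.4% of macrophage UMIs, and leaving them and the mitochondrial genes out moved every gene's log2 ratio by -0.51 and -0.49.

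B cells and T cells differed by less, and the sign of their structural log2 ratio also turned with the denominator in PyMT, from 0.14 to -0.11. It was -0.07 and -0.29 in Jagged1/PyMT. Psma1 was the 1 structural gene past 1.5-fold, higher in B cells in both libraries, at 59.4 CPM in T cells and 107 in B cells of PyMT and at 69.7 and 108 in Jagged1/PyMT (background 23.3% and 22.6% higher). Without ribosomal protein and mitochondrial genes in the total, Psma1 stayed past 1.5-fold in PyMT at a log2 ratio of 0.59 (background 15.8% higher and 26.6% lower) but not in Jagged1/PyMT at 0.40, where Psmc3 and Psma4 were past it lower (16.2% higher and 26.4% lower).

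Neutrophil-gated barcodes had the lowest structural levels, 1202 CPM in PyMT and 1797 in Jagged1/PyMT, below the 2652 and 3124 of barcodes with fewer than 100 UMIs that hold free RNA. Of the 31 genes, 29 in PyMT and 27 in Jagged1/PyMT were lowest in neutrophils among T cells, B cells, macrophages, neutrophils and mature DCs. The share of all measured genes that were lowest in neutrophils was not counted. The structural sum was 3.0-fold and 2.43-fold lower than in macrophages, with 29 and 28 of 31 genes past 1.5-fold lower, against 52.8% and 57.9% of measured genes. Without ribosomal protein and mitochondrial genes in the total it was 3.51-fold and 2.79-fold lower. Psmb6 fell from 289 to 55.3 in PyMT and from 300 to 64.6 in Jagged1/PyMT. Psmb9, the immune counterpart of Psmb6, was at 87.5 and 107 in neutrophils against 59.5 and 91.8 in macrophages. These neutrophil values rest on few molecules, as the 3 immune genes together gave 50 and 175 UMIs there. The difference in Psmb9 was not tested.

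Between genotypes, 10 structural genes reached 50 UMIs over both neutrophil libraries. Of these 6 were past 1.5-fold higher and Psma1 was past it lower (background 18.4% higher and 12.5% lower), and the interval left out 1 for Psmb3 (9 and 64 UMIs), Psmb1 (15 and 77 UMIs) and Psma1 (29 and 44 UMIs). C1q markers of macrophages summed to 41.5 and 152 CPM in these barcodes, and their part in the ratios was not tested.

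**Figure D3:**
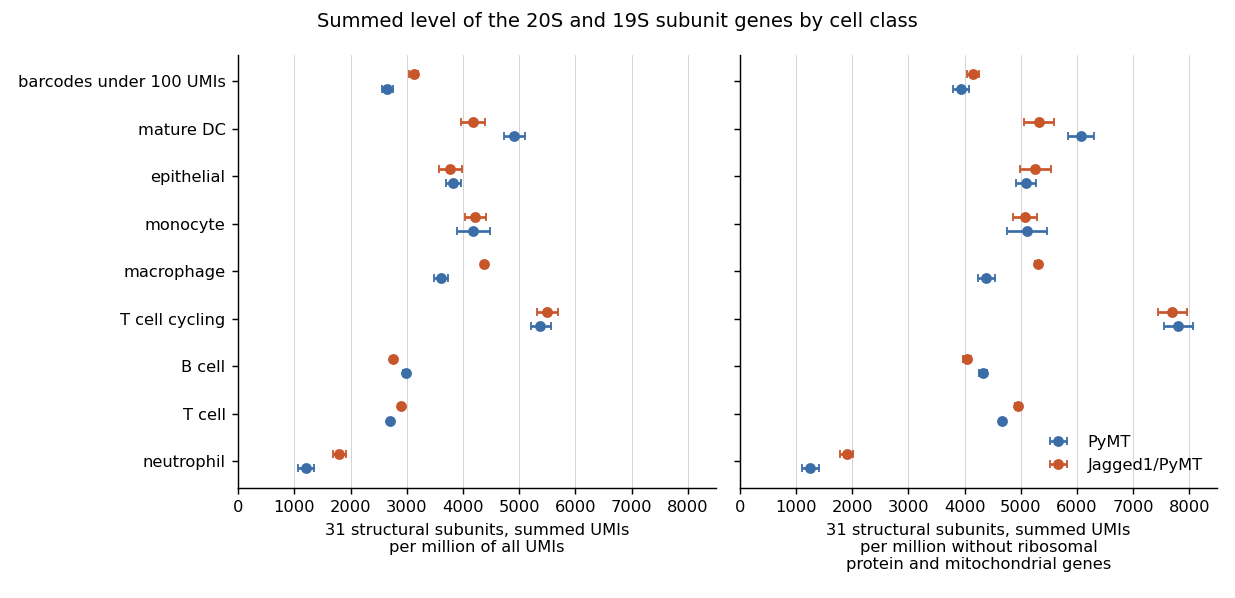
Summed level of the 31 structural genes in CPM of all UMIs (left) and in CPM without ribosomal protein and mitochondrial genes (right), by class and library, with 95% Poisson intervals. Neutrophils are lowest on both scales and cycling T cells highest, while macrophages at 3611 and 4367 lie above T cells at 2699 and 2892 on the left, and on the right at 4388 and 5303 against 4668 and 4945 they lie below T cells in PyMT and above them in Jagged1/PyMT.

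Mature DC-gated barcodes, chosen by Fscn1, Ccl22, Cacnb3 and Nudt17, had the most PA28 RNA of the classes described. Psme1 rose from 375 CPM in T cells to 2122 in mature DCs of the PyMT library and from 446 to 1739 in the Jagged1/PyMT library. Psme2 rose from 244 to 2278 and from 349 to 1991. The sum of both was 7.10-fold and 4.69-fold higher than in T cells, and 5.07-fold and 3.49-fold higher without ribosomal protein and mitochondrial genes in the total. A PA28 UMI was found in 98.1% and 100% of mature DC barcodes and in 84.7% and 88.2% of T cell barcodes, at median depths of 9967 and 7408 against 3930.5 and 3807 UMIs. In neutrophils, at median depths of 2513 and 2349 UMIs, the share was 24.7% and 40.7%. In barcodes under 100 UMIs, which hold free RNA, PA28 stood at 539 and 595 CPM, against 619 and 795 in T cells. The part of free RNA and of depth in these shares was not tested. The barcode richest in PA28 gave 4.96% and 7.05% of the class's PA28 UMIs. The quartiles of single mature DC barcodes ran from 2523 to 5790 CPM in PyMT and from 2488 to 5115 in Jagged1/PyMT.

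The structural subunits rose less in mature DCs, and unevenly. In PyMT 19 of 31 and in Jagged1/PyMT 12 of 31 genes were past 1.5-fold higher than in T cells, where 23.8% and 22.2% of all measured genes were. Psmd3 was past it lower in Jagged1/PyMT, as were 48% of measured genes (46.4% in PyMT). Without ribosomal protein and mitochondrial genes in the total, the ratio of the structural sum went from 1.82 to 1.30 in PyMT and from 1.45 to 1.08 in Jagged1/PyMT. On that scale 7 and 6 genes were past 1.5-fold higher (background 16.4% and 15.5%) and 1 and 2 were past it lower (59.7% and 59.5%). The alpha ring genes Psma5 (70.3 to 261 and 70.3 to 178 CPM) and Psma6 (67.2 to 202 and 70.8 to 153) and the catalytic Psmb7 (38.9 to 148 and 42.5 to 110) were among those that rose most. The catalytic subunits Psmb6 and Psmb5, which the immune subunits Psmb9 and Psmb8 replace, were not past 1.5-fold over all UMIs. Psmb6 stood at 138 CPM in T cells and 126 in mature DCs of PyMT, and at 145 and 124 in Jagged1/PyMT. Psmb5 stood at 98.8 and 120 in PyMT, and at 120 and 113 in the other library. Without ribosomal protein and mitochondrial genes in the total, Psmb6 was past 1.5-fold lower in both libraries, at log2 ratios of -0.62 and -0.65, and Psmb5 was at -0.20 and -0.52. Psmd10 (gankyrin, a base chaperone) rose from 14.9 to 70.3 and from 14.4 to 67.9, and Psmg4 from 50.7 to 183 and from 56.6 to 150. The chaperones Psmg2 (29.6 to 7.4 and 32.8 to 8.48) and Psmd9 (31 to 14.8 and 27.9 to 11.3) fell, so the 7 chaperones did not all move one way. Of the activators, Psme3 fell from 57.8 to 22.2 and from 52.3 to 25.5. Between genotypes, Psmd4 (255 and 170) and Psmc4 (141 and 87.7) were past 1.5-fold lower in Jagged1/PyMT mature DCs, among 29 structural genes measured (background 3.7% higher and 11.4% lower). Markers of B cells, NK cells, monocytes and plasmacytoid DCs were at 0 in both mature DC libraries, while the 3 macrophage markers summed to 18.5 and 19.8 CPM. The 1 detected conventional DC marker of 4 gave 170 and 110 CPM, the 5 epithelial markers summed to 61.1 and 96.2, T cell markers to 9.25 and 5.66 and neutrophil markers to 1.85 and 5.66. Their part in the mature DC values was not tested.

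The share of immune against constitutive catalytic RNA put the 5 classes listed next in the same order for the caspase-like and the chymotrypsin-like site. Psmb9 made up 6.59% (3.45 to 11.2) and 6.25% (2.06 to 14) of Psmb9 plus Psmb6 UMIs in epithelial-gated barcodes, 17.1% and 23.5% in macrophages, 23.8% and 39.5% in B cells, 35.1% and 44.4% in T cells, and 82.2% and 81.3% in mature DCs. Psmb8 made up 29.6% and 47.5% of Psmb8 plus Psmb5 in epithelial barcodes, 59.2% and 66.2% in macrophages, 72.6% and 78.0% in B cells, 76.4% and 79.3% in T cells, and 93% and 93.4% in mature DCs. That order did not extend to every class. In neutrophils Psmb9 stood above Psmb6 in both libraries. NK cell-gated barcodes held 18 and 12 UMIs of Psmb9 against 20 and 12 of Psmb6, a share above that of T cells. They held 71 and 46 of Psmb8 against 24 and 26 of Psmb5, a share below that of T cells. For the trypsin-like site, Psmb10 against Psmb7, macrophages (60.6% and 61.5%), B cells (61.6% and 71.1%) and T cells (60.9% and 69.3%) lay close together. In mature DCs the Psmb10 share lay nearer to that of T cells than the Psmb9 and Psmb8 shares did. The 3 immune genes summed to 456 and 673 CPM in T cells, 407 and 577 in B cells and 399 and 568 in macrophages, so that in these classes their genotype ratios were larger than that of the structural sum. Psmb9 was past 1.5-fold higher in all 3.

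**Figure D4:**
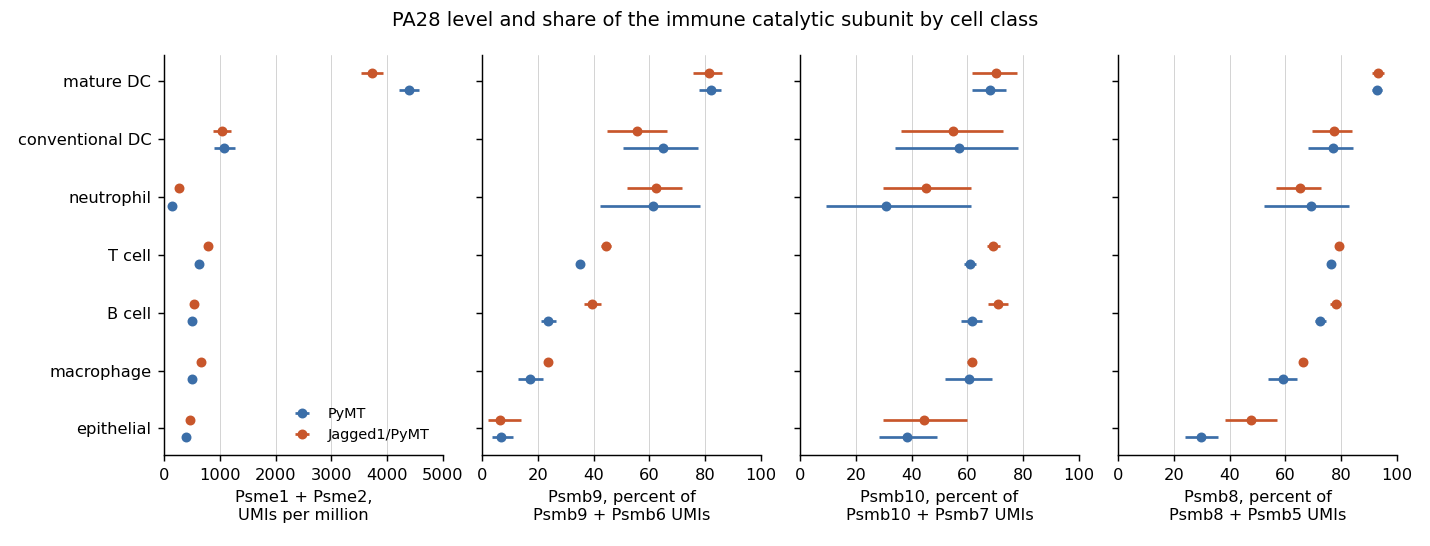
PA28 level (Psme1 plus Psme2, CPM, with 95% Poisson intervals) and the share of the immune gene in each catalytic pair (percent of the pair's UMIs, with 95% binomial intervals) by class and library. Mature DCs stand apart at 4400 and 3730 CPM of PA28, and the Psmb9 share runs from about 6% in epithelial barcodes to over 81% in mature DCs.

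Cycling T cells had about 2-fold the structural RNA of other T cells in both libraries, by ratios of 2.06 and 2.02. The level was 2612 CPM in non-cycling and 5378 in cycling barcodes of PyMT, and 2726 and 5502 in Jagged1/PyMT, from 28 and 36 cycling barcodes. Past 1.5-fold higher were 27 and 28 of 31 genes, where 36.6% of measured genes were in each library, and the median log2 ratios were 1.08 and 1.0 against 0.24 and 0.31 for all measured genes. Without ribosomal protein and mitochondrial genes in the total the ratios were 1.72 and 1.63, with 23 and 21 genes past 1.5-fold (background 27.8% and 24.4%). Psma4, the alpha ring gene lowest in T cells, rose most, from 52.4 to 213 and from 54.7 to 223 CPM, and so moved above Psma1, Psma5 and Psma6. Psma7 rose from 157 to 419 and from 178 to 485, Psmb2 from 107 to 280 and from 95 to 285, and Psmd6 from 39.0 to 109 and from 32.9 to 91.3. The lowest ratios were those of Psmc5 (65.4 to 82.7 and 71.5 to 88.1) and Psmd4 (97.2 to 133 and 92.6 to 102).

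PA28 had lower ratios than the core in cycling T cells. Psme2 went from 237 to 485 and from 333 to 604 and Psme1 from 372 to 479 and from 439 to 556, so that Psme2, below Psme1 in other T cells, stood level with it or above it in cycling ones. Among the chaperones Psmg3 rose from 9.89 to 26.0 and from 7.81 to 26.8, and Psmg4 stood at 50.4 and 59.7 and at 55.6 and 70.8. Cycling barcodes were deep, with medians of 18619.5 and 16331 UMIs against 3916.5 and 3789. Thinned to 1000 UMIs each, they held 5.43 and 5.56 structural UMIs on average against 2.60 and 2.67 in other T cells. Cycling macrophages of the Jagged1/PyMT library, 248 barcodes, differed from other macrophages by less. All 31 structural genes were above 1, none passed 1.5-fold (background 12.1% higher and 7.88% lower), the sum went from 4111 to 5193 CPM, and PA28 stood at 664 and 667. The 8 cycling macrophages of PyMT were too few to describe by gene.

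**Figure D5:**
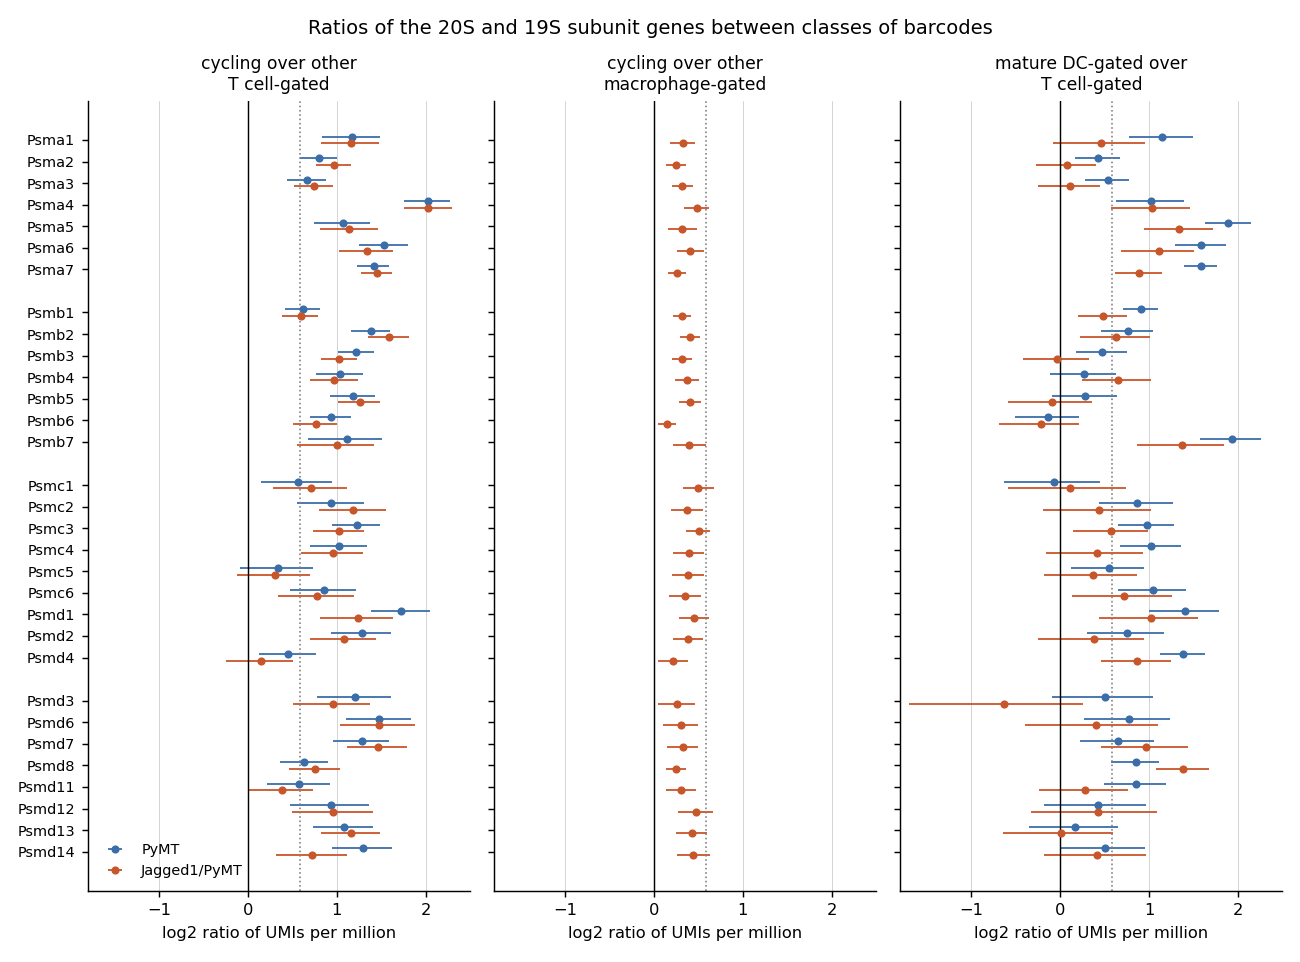
Log2 ratio of each structural gene within a library for cycling over other T cells, cycling over other macrophages (Jagged1/PyMT only) and mature DCs over T cells, with 95% conditional intervals, where the dotted line marks 1.5-fold higher. Psma4 is highest in cycling T cells at 2.02 and 2.03, the macrophage ratios run from 0.15 to 0.50, and Psmb7 and Psma5 lead in mature DCs of PyMT.

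Per barcode, thinned to 1000 UMIs, T cells held a mean of 2.61 and 2.72 structural UMIs, B cells 2.90 and 2.75, macrophages 3.71 and 4.32, mature DCs 4.40 and 4.06 and neutrophils 1.14 and 1.93. The thinning left out 26 and 36 T cell, 10 and 19 B cell, 34 and 98 macrophage, 1 and 2 mature DC and 0 and 6 neutrophil barcodes with fewer UMIs. No structural UMI was drawn in 35.6% and 22.2% of neutrophil barcodes, in 7.75% and 6.99% of T cells and in 5.71% and 3.39% of macrophages. The order of the classes was that of the summed levels in PyMT, whereas in Jagged1/PyMT T cells lay above B cells by summed level and just below them here.

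Of 17 genes that work with the proteasome, 9 were above 1 in T cells and 1 was past 1.5-fold lower, a share near the 5.8% of all measured genes. It was the nuclear import factor Akirin2, which fell from 16.5 to 10.4 CPM. Pomp, the maturation factor of the core, was at 111 and 142 in T cells and 244 and 282 in macrophages. In B cells Zfand2a fell from 37 to 14 UMIs, and in macrophages Ublcp1, a phosphatase of the 19S regulator, rose from 2 to 140 UMIs (log2 ratio 2.09, 0.21 to 5.15). Of 10 genes that control proteasome transcription or process the factors involved, 8 were below 1 in T cells, where the median ratio of all measured genes was near 1. Syvn1, an endoplasmic reticulum ubiquitin ligase, fell from 20.8 to 10.8, past 1.5-fold lower as were 5.8% of all measured genes. Nfe2l1, the Nrf1 gene, was at 21.0 and 15.8 in T cells, and Nfe2l2, the Nrf2 gene, at 39.9 and 55.2. In macrophages Nfe2l2 was at 503 and 536, and none of the 10 passed 1.5-fold (background 16.5% higher and 10.5% lower).

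The 4 remaining members carried little RNA. Psmb11, the thymic core subunit, had 0 UMIs in T cells, B cells and macrophages of both libraries. Psma8, the testis alpha ring subunit, had 0 UMIs in every class of PyMT. In Jagged1/PyMT it had 17 in macrophages, 13 in barcodes positive for more than 1 class, 1 in mature DCs and 1 in ungated barcodes, each in a barcode of its own. Macrophages were sampled far less in PyMT, with 3153 structural UMIs against 62574 in Jagged1/PyMT. The genotypes were therefore not compared for Psma8. Psmc3ip was at 8.52 and 10.3 CPM in T cells, and Psme2b rose from 6.07 in T cells to 25.9 in mature DCs of PyMT and from 9.60 to 39.6 in Jagged1/PyMT.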

How the data were processed

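Raw UMI counts per gene and barcode were deposited by the authors as 1 matrix per genotype, with 737280 listed barcodes. They were made with Cell Ranger 3.0.2, per the submitters' processing notes; genome build and annotation are not given in the sources read. The counts were used as deposited, with Python 3.11.15, numpy 2.4.6, scipy 1.17.1, pandas 2.3.3 and matplotlib 3.10.9. Barcodes were filtered and gated as the results state; a barcode positive for both macrophage and monocyte markers counted as macrophage, no doublet caller was run, and barcodes positive for any other pair were left out. UMIs were summed per class and library and divided by the class total. The procedure was tested on simulated data with Poisson counts only. Such data hold no variation between samples, gates or free RNA, so that test cannot speak to them. A gene was counted as past 1.5-fold among genes with at least 50 UMIs over both groups. Named are members past 1.5-fold whose interval leaves out 1, or the 2 highest and 2 lowest ratios where there were none, and genes that mark a role. The members and lists were chosen with earlier results of these data known. Alternatives changed the UMI minimum, the mitochondrial limit, the gate, the weighting, depth, the denominator, the deepest barcodes, cycling barcodes, the gene minimum and the fold.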

Additional observations from a re-analysis of the deposited data

How the results depend on the processing

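No paired analysis was possible because both samples of a genotype share 1 matrix with no map from barcode to sample, and no replicate could be left out for the same reason. Of 94 alternative values, 58 stayed within the counting error, or within 1.5 times for counts, of the value reported, 34 moved and 2 changed sign. The T cell log2 ratio of 0.10 was 0.022 in barcodes with 0 UMIs of other classes' markers, 0.041 as a mean over barcodes, 0.056 after thinning to 1000 UMIs and 0.062 without cycling barcodes. The macrophage log2 ratio of 0.27 was 0.18, 0.20 and 0.22 under the first 3 of these settings. Structural genes past 1.5-fold in macrophages were 4, 7 and 6 under those 3, 4 without the top 2% of barcodes by UMIs and 0 at 2-fold, and in B cells 2 after thinning. The macrophage over T cell log2 ratio in PyMT (0.42) was 0.59, 0.52 and 0.51 under those 3 and reversed to -0.089 without ribosomal protein and mitochondrial genes; in Jagged1/PyMT (0.59) it was 0.75, 0.67, 0.67 and 0.10.

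Another 3 settings were chosen after seeing the data. In barcodes of 2000 to 10000 UMIs the T cell and macrophage log2 ratios were 0.036 and 0.17, with 3 macrophage genes past 1.5-fold. With gates and levels both taken at 1000 UMIs, the T cell and B cell log2 ratios were 0.065 and -0.066, 1 B cell gene and 7 macrophage genes were past 1.5-fold, and macrophage over T cell was 0.29 in PyMT and 0.52 in Jagged1/PyMT. With mixed barcodes counted in each class, T cells were at 0.31 and B cells reversed to 0.014, 1 T cell gene and 0 macrophage genes were past 1.5-fold, and macrophage over T cell was 0.31 and 0.24. Where values moved, the cause was not tested.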

Other observations

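The smaller classes varied in structural level. NK cell-gated barcodes (34 in PyMT and 14 in Jagged1/PyMT) stood at 3256 (2972 to 3560) and 3975 (3565 to 4418) CPM, with 774 and 1159 CPM of PA28. Monocyte-gated barcodes (21 in PyMT and 56 in Jagged1/PyMT) stood at 4176 and 4219 CPM, plasmacytoid DC-gated barcodes (15 and 18) at 4357 and 4181, and conventional DC-gated barcodes (9 and 13) at 4053 and 4299. Conventional DCs held 1072 and 1032 CPM of PA28, above the 619 and 795 of T cells and below the 4400 and 3730 of mature DCs. Epithelial-gated barcodes that passed the sort held 3825 and 3775 CPM of the structural subunits and 386.4 and 465 of PA28.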
